A study of Mus musculus with 14 samples.

Results

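The miRNAs described here are the red cell products of the miR-144/451 cluster and of miR-486, read on 14 Agilent mouse miRNA arrays from bone marrow and hypothalamus. They are the 6 array entries mmu-miR-144-3p, mmu-miR-144-5p, mmu-miR-451a, mmu-miR-486-3p, mmu-miR-3107-5p and mmu-miR-3107-3p (the prefix mmu-, for mouse, is left out below), taken by name from 1247 miRNAs on the array. On this array miR-3107 is the name of miR-486b, and the probes for miR-3107-5p also carry the accession of miR-486-5p.

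All animals were male C57BL/6 mice, 6 to 8 weeks old, and tissue was taken 12 h after gamma irradiation with 8 Gy or with 0 Gy. Bone marrow had 5 pretreatment arms. The CBLB502 arm was injected into the abdomen (i.p.) with 0.2 mg/kg of this engineered flagellin, an agonist of TLR5, 0.5 h before irradiation. The amifostine arm received 10 mg/kg of this radical-scavenging thiol prodrug by the same route, also 0.5 h before. The nilestriol arm received the oestrogen derivative by gavage (i.g.), 150 mg/kg, 48 h before. The vehicle arms received phosphate-buffered saline (PBS), 1 arm i.p. and 1 arm i.g. Each arm had 1 array at 8 Gy and 1 at 0 Gy, and hypothalamus was arrayed for amifostine i.p. and PBS i.p. only. Each array held RNA pooled from 3 mice, so replicates here are arms and the p-values measure only the spread between these pools. In bulk tissue, fewer cells of a type and less RNA per cell cannot be told apart.

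miR-144 and miR-451a come from a single primary transcript that the transcription factor GATA1 switches on in erythroid precursors, and both accumulate as red cells mature. miR-451a is processed in an unusual way in vertebrates: its short hairpin bypasses Dicer and is cut by Argonaute 2, so the mature strand runs into the loop. miR-486 is transcribed from within the ankyrin 1 gene (Ank1), in erythroid cells and in muscle.

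The mature strands of the cluster are shown because they tell the members apart. They are from RefSeq (GRCm38.p6), 5′ to 3′, with the seed (bases 2 to 8) in capitals.
miR-144-3p: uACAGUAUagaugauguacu
miR-144-5p: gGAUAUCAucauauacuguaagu
miR-451a: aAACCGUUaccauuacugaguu
The 3 strands lie on the plus strand, at chr11:78073047-78073066 for miR-144-3p, chr11:78073010-78073032 for miR-144-5p and chr11:78073186-78073207 for miR-451a. No other mature miRNA among 1679 names in the RefSeq table had any of these seeds, and the miR-144-3p bases 2 to 7 are also found in 1 other, miR-101a-3p.

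The hairpins are shown for the place of the mature strands, here in capitals.
Mir144: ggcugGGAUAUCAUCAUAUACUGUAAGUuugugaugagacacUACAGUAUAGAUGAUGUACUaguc
Mir451a: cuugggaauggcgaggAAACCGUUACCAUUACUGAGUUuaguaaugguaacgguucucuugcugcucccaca
In the folded Mir451a hairpin, 4 of the 4 loop bases belong to mature miR-451a. In Mir144 the loop of 6 bases lies between the strands, and 0 of its bases belong to either. The 2 hairpins are 99 bases apart. miR-451b, which is annotated on the same interval as miR-451a, was detected on 0 of 14 arrays.

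For the miR-486 products the array's own probes are shown, since they set what can be told apart. They are given 5′ to 3′ as deposited, with the base that the miR-486-3p probe has beyond the miR-3107-3p probe in capitals.
miR-486-3p: Atcctgtactgagctgc
miR-3107-3p: tcctgtactgagctgc
miR-3107-5p: ctcggggcagctca
The 3p probes share 16 bases and differ by 1 added base, so the miR-486-3p and miR-3107-3p signals cannot be told apart and count as readings of near-identical RNA. Mir486 (chr8:23142555-23142682) and Mir3107 (chr8:23142573-23142662) overlap inside the Ank1 interval (chr8:22974836-23150501). The 6 members thus come from 2 loci and are not independent of each other.

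Every member had 2 probes of 20 spots each, and no spot was saturated. Levels below are scaled signals, the background-subtracted intensity divided by the array's 75th percentile, so that a miRNA at that percentile has the value 1. They compare arrays for a given miRNA and rank no miRNA against another. On the bone marrow arrays 332 to 403 miRNAs were detected and on the hypothalamus arrays 478 to 582. The labelled tissues held their markers: 6 of 6 neuronal miRNAs were lower in bone marrow (summed scaled signal 0.493 to 0.730) than in hypothalamus (57.3 to 83.4), and 4 of 4 tested myeloid miRNAs were higher in bone marrow.

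The first question was how these miRNAs stood 12 h after 8 Gy in bone marrow. All 6 were higher at 8 Gy than at 0 Gy, by 1.96-fold for miR-144-5p to 3.03-fold for miR-144-3p. All 6 passed the test (limma with the arm as block, Benjamini-Hochberg adjusted p under 0.05), against 34 of 371 tested miRNAs that passed as higher (9.16%) and 47 that passed in either direction (12.7%). The median difference (log2) was 1.33 over the members and 0.09 over all tested miRNAs. For 6 of 6 members every array at 8 Gy lay above every array at 0 Gy, a pattern that 22 of 371 miRNAs showed (5.93%). A rise in each of the 5 arms was less rare, with 75 of 371 miRNAs (20.2%). Among the calls over all miRNAs 13 were lower, and quantile normalization gave 19 higher and 23 lower. Scaling over all miRNAs gave 21 higher, the lower ones again numbering 13. All 6 members passed as higher under each of these.

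miR-451a, which in mouse red cell precursors restrains the adaptor protein gene Ywhaz and protects against oxidative damage, was detected on all 10 bone marrow arrays. At 8 Gy its scaled signal was 189 after CBLB502, 299.9 after amifostine, 179.9 after nilestriol, 272 after PBS i.p. and 216 after PBS i.g. At 0 Gy it was 94.1 after CBLB502, 95.01 after amifostine, 44.9 after nilestriol, 118 after PBS i.p. and 97.1 after PBS i.g. On the 0 Gy side the nilestriol array lay well below the other 4, which were close together, while the 8 Gy arrays were spread out above all 5. The difference was 1.40 ± 0.17 (log2 ± SE, adjusted p = 0.00922), and the change in single arms ran between 1.01 with CBLB502 and 2.003 with nilestriol. In the order of the 10 levels, 3 gaps between neighbours exceeded the residual SD of 0.29 (log2). They lay between PBS i.p. and PBS i.g. at 8 Gy (0.33), between the lowest 8 Gy array and the highest 0 Gy array (0.60), and between CBLB502 and nilestriol at 0 Gy (1.07).

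miR-144-3p, the guide strand that in human erythroid cells targets the antioxidant regulator NRF2, was the most variable member. At 8 Gy it stood at 1.89 after CBLB502, 2.39 after amifostine, 1.56 after nilestriol, 2.64 after PBS i.p. and 1.14 after PBS i.g. At 0 Gy it stood at 1.03 after CBLB502, 0.566 after amifostine, 0.356 after nilestriol, 0.465 after PBS i.p. and 0.849 after PBS i.g. The groups did not overlap, but the lowest 8 Gy array (PBS i.g.) and the highest 0 Gy array (CBLB502) were nearly level. The difference was 1.60 ± 0.34 (adjusted p = 0.0348), with an SD over the 5 arm changes of 0.90. No gap between neighbours in the order of its 10 levels exceeded the residual SD of 0.64.

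miR-144-5p, the opposite strand of the same hairpin, was measured at 0.723 after CBLB502, 1.28 after amifostine, 0.763 after nilestriol, 1.17 after PBS i.p. and 0.889 after PBS i.g. at 8 Gy. Its 0 Gy levels were 0.479 after CBLB502, 0.527 after amifostine, 0.303 after nilestriol, 0.622 after PBS i.p. and 0.534 after PBS i.g. It had the smallest difference of the 6, 0.97 ± 0.14 (adjusted p = 0.0138), and again the nilestriol array was the lowest at 0 Gy.

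miR-3107-5p, the array's reading of miR-486-5p, which restrains the transcription factor gene Foxo1 in mouse muscle, followed miR-451a closely. Its 8 Gy levels were 5.05 after CBLB502, 8.12 after amifostine, 4.14 after nilestriol, 7.76 after PBS i.p. and 5.38 after PBS i.g. At 0 Gy they were 2.62 after CBLB502, 2.24 after amifostine, 1.17 after nilestriol, 3.18 after PBS i.p. and 2.43 after PBS i.g. The difference was 1.41 ± 0.17 (adjusted p = 0.00922), larger than the residual spread, and the nilestriol arrays were the lowest at either dose.

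The 3p entries were dim, with scaled signals under 0.11 throughout. miR-486-3p ran from 0.0644 to 0.104 at 8 Gy and from 0.0252 to 0.0490 at 0 Gy, where it was detected on 4 of 5 arrays and the nilestriol array sat at the floor for low values. Its difference was 1.25 ± 0.18 (adjusted p = 0.0124) with that array at the floor. It was 0.21 with normexp background correction and -0.0786 with the scanner software's totals, neither passing, so its size and sign depended on the setting. miR-3107-3p ran from 0.0457 to 0.0680 at 8 Gy. At 0 Gy it was detected on 3 of 5 arrays and sat at the floor on all but the PBS i.p. array (0.0282), so that the error of its difference, 1.05 ± 0.12 (adjusted p = 0.00922), understates the spread. With normexp the difference was 0.12 and did not pass.

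**Figure D1:**
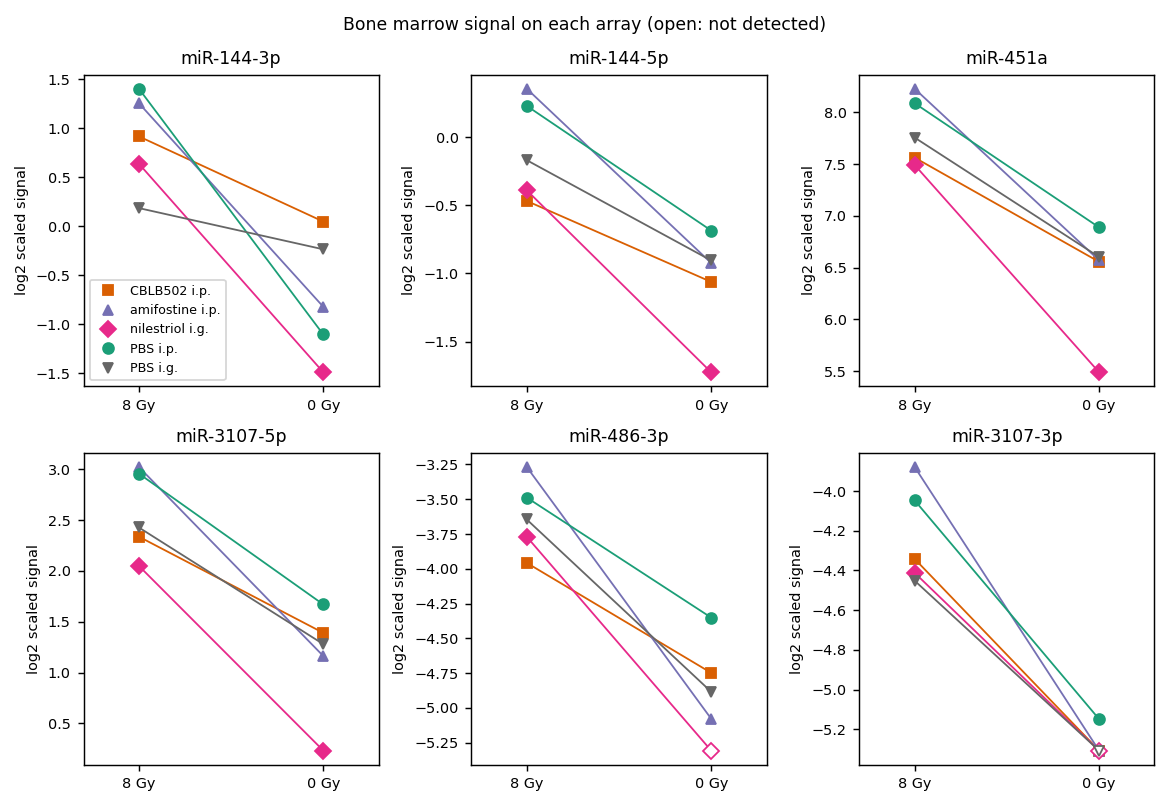
Log2 scaled signal of each member (1 panel each) on the 10 bone marrow arrays, 8 Gy at the left and 0 Gy at the right, with lines joining the arrays of an arm and open symbols where the miRNA was not detected. All 5 arrays at 8 Gy lie above all 5 at 0 Gy in every panel, and the nilestriol array is the lowest or at the floor at 0 Gy.

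The calls depended on which arms were in the fit. Without the PBS i.p. arm 0 of 6 members passed (limma, 1 of 379 miRNAs in all), and without the amifostine arm 1 of 6 (2 of 371). In either fit all 6 had an unadjusted p under 0.05, a level that 134 of 371 miRNAs reached with all 5 arms. The count of all miRNAs at that level is not given for these smaller fits. Without the CBLB502 arm (7 of 373 miRNAs in all) and without the nilestriol arm (89 of 366) 5 of 6 passed each. In both miR-144-3p was the one that did not. Without the PBS i.g. arm 6 of 6 passed, and 24 of 378 miRNAs in all. The size of the differences moved little: miR-451a stayed between 1.25 and 1.503 and miR-144-3p between 1.34 and 1.89 with any 1 arm left out.

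Arms differed in how far the members moved. The median change of the 6 was 0.91 with CBLB502, 1.73 with amifostine, 1.68 with nilestriol, 1.15 with PBS i.p. and 1.002 with PBS i.g., while the median over all 371 miRNAs lay between -0.02 and 0.11 in each arm. The bone marrow arrays of amifostine and nilestriol shared slide 2, and the other bone marrow arrays slide 1, each slide being a scan batch of its own. The mean change of miR-451a was 1.83 over the 2 arms of slide 2 and 1.12 over the 3 arms of slide 1, so that drug and slide cannot be told apart in this contrast. Within slide 1 alone, 3 of 6 members passed (miR-451a at 1.13), and within slide 2 alone 0 of 6 passed with limma on 4 arrays (miR-451a at 1.86, adjusted p = 0.176). Within slide 2 all 6 had an unadjusted p under 0.05. Counts over all miRNAs are not given for the fits within a slide, so these counts describe the members alone. For miR-144-3p, amifostine (2.08) and nilestriol (2.13) were joined by PBS i.p. (2.51), whereas CBLB502 (0.87) and PBS i.g. (0.42) were lower. The vehicle routes differed for this strand in opposite directions by dose, with PBS i.p. minus PBS i.g. at 1.22 at 8 Gy and -0.87 at 0 Gy.

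**Figure D2:**
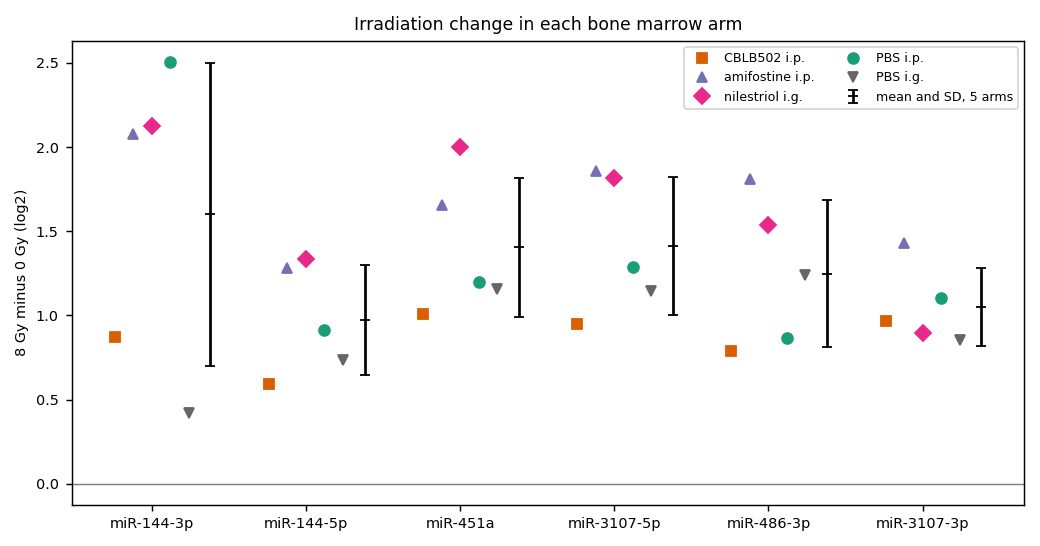
Change from irradiation (8 Gy minus 0 Gy, log2 scaled signal) of each member in each of the 5 bone marrow arms, with the mean and SD over arms as black bars. miR-144-3p has the widest spread (0.42 to 2.51), and amifostine and nilestriol give the largest changes for miR-144-5p, miR-451a, miR-3107-5p and miR-486-3p.

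In the vehicle arms alone (4 arrays) the same direction was seen with no call. The difference was 1.19 ± 0.07 for miR-451a, 1.23 ± 0.07 for miR-3107-5p, 0.84 ± 0.08 for miR-144-5p and 1.48 ± 0.71 for miR-144-3p. With limma 0 of 6 members passed (0 of 362 miRNAs, 0%), at an adjusted p of 0.155 for each member but miR-144-3p (0.304). At an unadjusted p under 0.05 there were 107 miRNAs, 5 of the members among them.

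Strands of a hairpin were then compared through their changes in the 5 arms. The change of miR-144-3p exceeded that of miR-144-5p in 4 of 5 arms, by 0.63 on average (SD 0.71). The single arms gave 0.28 with CBLB502, 0.80 with amifostine, 0.79 with nilestriol, 1.59 with PBS i.p. and -0.32 with PBS i.g. This did not reach significance (exact two-sided sign-flip test, p = 0.1875, the smallest possible with 5 arms being 0.0625). The 2 probes for miR-144-3p gave a mean change of 1.60 each, with the same spread (SD 0.91 and 0.89), so both probes showed the variation between arms. For miR-486 the change of miR-486-3p minus that of miR-3107-5p averaged -0.16 (SD 0.20, positive in 1 of 5 arms, exact p = 0.1875), with the 3p strand near the floor at 0 Gy.

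Members of the cluster were compared in the same way. The change of miR-451a exceeded that of miR-144-5p in 5 of 5 arms, by 0.43 (SD 0.14), at the smallest p these 5 arms allow (exact p = 0.0625). Its difference from that of miR-144-3p averaged -0.20 (SD 0.75, exact p = 0.6875). The changes of miR-3107-5p and miR-451a, from different chromosomes, differed by 0.01 on average (SD 0.15, exact p = 0.875). Adjusted over these 5 pairs, no p was below 0.3125.

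miR-451a and miR-3107-5p had nearly parallel levels over the 10 bone marrow arrays. Among 295 other miRNAs detected on all of them, those most like miR-451a by Pearson's r of the log2 levels were miR-3107-5p (0.99), miR-30a-5p (0.99), miR-144-5p (0.99), miR-186-5p (0.98), miR-140-3p (0.95) and miR-25-3p (0.95). The median r over the 295 was 0.12, and 17 of them (5.76%) were above 0.9. miR-144-3p was further off, at 0.88. These correlations are descriptions over 10 arrays that share 2 slides and 2 doses, and much of each follows the step between doses. After subtracting the mean of each dose they were 0.98 for miR-3107-5p, 0.97 for miR-144-5p and 0.56 for miR-144-3p. Among the miRNAs that are no members, miR-30a-5p and miR-25-3p were also at 0.97 within dose, miR-186-5p at 0.92 and miR-140-3p at 0.86. Each of these 4 also passed the irradiation test as higher, between 0.58 for miR-25-3p and 1.02 for miR-30a-5p.

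**Figure D3:**
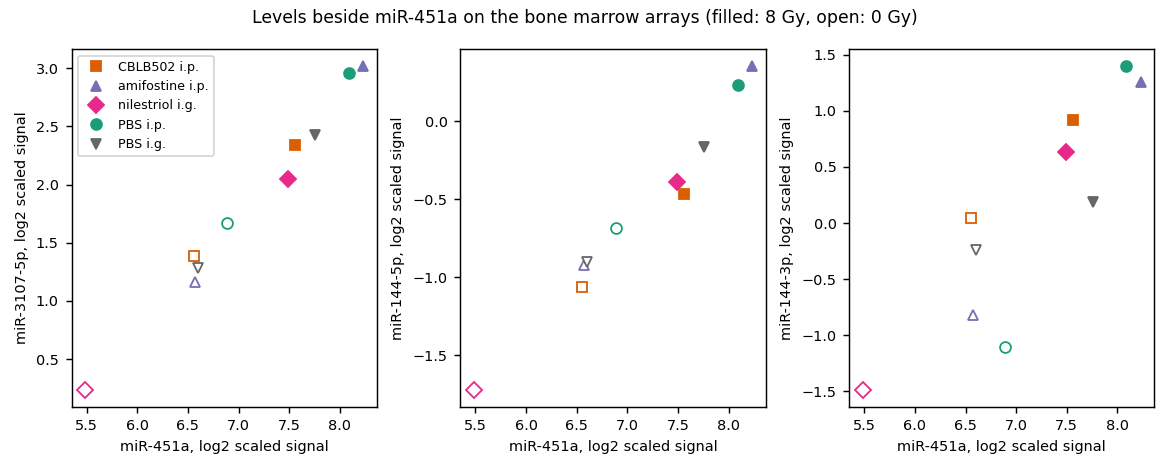
Log2 scaled signal of miR-3107-5p, miR-144-5p and miR-144-3p against that of miR-451a on the same 10 bone marrow arrays, filled at 8 Gy and open at 0 Gy. The first pair of panels follow a line through all arrays, while miR-144-3p scatters, most at 0 Gy, and the nilestriol 0 Gy array is at the lower left of each.

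Lists of other blood cell miRNAs were set beside the members. Of 14 miRNAs that red cells hold in quantity, 13 were tested at 8 minus 0 Gy, and 4 passed as higher: miR-22-3p (0.90), miR-16-5p (0.76), miR-25-3p (0.58) and miR-15b-5p (0.60). One passed as lower, miR-363-3p (-1.52), and the median of the list was 0.36. Their summed scaled signal ran from 56.4 to 82.9 at 8 Gy and from 36.9 to 64.4 at 0 Gy, so the ranges overlapped. Of 8 miRNAs known to fall as red cells mature, miR-222-3p (0.65), miR-223-3p (0.54) and miR-221-3p (0.48) passed as higher. miR-181b-5p (-1.02) and miR-181a-5p (-0.67) passed as lower, and the median of that list was 0.07.

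Some markers of other marrow cells moved too. Over all tested miRNAs, 34 of 371 passed as higher (9.16%) and 13 as lower. Of 4 tested miRNAs of the myeloid list, miR-21a-5p (0.52) and miR-223-3p passed as higher. The others, miR-142-3p (-0.03) and miR-142-5p (-0.12), were slightly lower without passing, and the median of the list was 0.24. The list's summed signal ran from 62.7 to 100.5 at 8 Gy and from 43.0 to 77.3 at 0 Gy. Of 4 lymphoid miRNAs 2 passed as lower, both of them miR-181 members already named, and the sum ran from 1.34 to 1.99 at 8 Gy and from 1.57 to 3.09 at 0 Gy. Of 5 megakaryocyte and platelet miRNAs only miR-223-3p passed, and the sum ran from 47.0 to 81.6 at 8 Gy and from 29.5 to 62.8 at 0 Gy. The lists share members such as miR-223-3p. A sum mostly follows its brightest members, so the sums of lists that share members are not separate readings of cell types. The part of other cell types in the members' change was not tested.

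The next question was whether the drugs shifted these miRNAs. Over both doses against the 4 PBS arrays, 0 of 6 members passed with any of the 3 drugs. With nilestriol the members were lower without passing: miR-3107-5p by -0.94 ± 0.26, miR-451a by -0.84 ± 0.24 and miR-144-5p by -0.67 ± 0.20 (limma, adjusted p = 0.179 each). Their 95% intervals ran from -1.55 to -0.33, from -1.40 to -0.29 and from -1.16 to -0.19. The median of the 6 members was -0.58, against 0.02 over all miRNAs. Other lists were lower too, with medians of -0.48 (red cell abundant), -0.57 (falling as red cells mature) and -0.57 (lymphoid). The myeloid list (-0.18) and the megakaryocyte and platelet list (-0.07) were lower by less. The lower level was thus not particular to the members. No miRNA of 371 passed for nilestriol (0%), although 95 had an unadjusted p under 0.05, 3 members among them. The size depended on single arrays. With an array left out, the difference lay between -1.22 and -0.45 for miR-451a and between -1.20 and -0.67 for miR-3107-5p.

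The nilestriol array lay furthest below vehicle at 0 Gy. The median at that dose was -0.87 for the members and -0.09 over all miRNAs. It was -0.69 for the red cell abundant list, -0.90 for miRNAs falling as red cells mature and -0.85 for the lymphoid list. For the myeloid list it was -0.24, and for the megakaryocyte and platelet list -0.17. There nilestriol minus vehicle was -1.26 ± 0.23 for miR-451a (adjusted p = 0.0638), -1.24 ± 0.34 for miR-3107-5p (0.0906) and -0.93 ± 0.24 for miR-144-5p (0.0886). Again 0 of 6 passed, where 35 of 371 miRNAs did (9.43%), 26 of them higher and 9 lower. At an unadjusted p under 0.05 (limma) there were 171 of 371 miRNAs, with 3 members among them. The members' share at that level was thus near the share over all miRNAs. At 8 Gy the differences were -0.43 for miR-451a, -0.64 for miR-3107-5p and -0.42 for miR-144-5p, none passing. The test of that dose difference for miR-451a gave 0.83 ± 0.32 (adjusted p = 0.249), with 0 of 371 miRNAs passing and 85 at an unadjusted p under 0.05. These tests by dose have 1 drug array each and take its spread from the PBS pairs, and the drug and slide 2 cannot be told apart.

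CBLB502 gave small differences of mixed sign. They ran from -0.38 ± 0.20 for miR-144-5p (95% interval -0.86 to 0.10) to 0.42 ± 0.43 for miR-144-3p (-0.59 to 1.43), and miR-451a stood at -0.27 ± 0.24 (-0.83 to 0.28). None of the members had an unadjusted p under 0.05, where 45 of 371 miRNAs passed (12.1%). Without the CBLB502 0 Gy array the miR-144-3p value was -0.02, and without the CBLB502 8 Gy array miR-3107-5p stood at 0.08 rather than -0.22. Against the PBS i.p. arrays alone, miR-144-3p was higher by 1.15 at 0 Gy and lower by -0.49 at 8 Gy, with 1 array on each side.

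For amifostine the members' differences from vehicle over both doses were small, and the drug and slide 2 cannot be told apart. They ran from -0.08 for miR-486-3p to 0.15 for miR-144-3p, and miR-451a was at 0.07 ± 0.24 (95% interval -0.49 to 0.62). For miR-144-3p the interval was wider, from -0.85 to 1.16. The sign for miR-451a turned with the scaling, to -0.19 with scaling over all miRNAs and with quantile normalization and -0.06 with none. No miRNA of 371 passed (limma, 0%), and 76 had an unadjusted p under 0.05, with 0 of the members. The amifostine by irradiation difference of miR-451a was 0.48 ± 0.32 (adjusted p = 0.450) and that of CBLB502 was -0.17 ± 0.32 (adjusted p = 0.901). With limma 0 of 371 miRNAs passed in each, and 61 and 38 had an unadjusted p under 0.05, with no member in either.

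**Figure D4:**
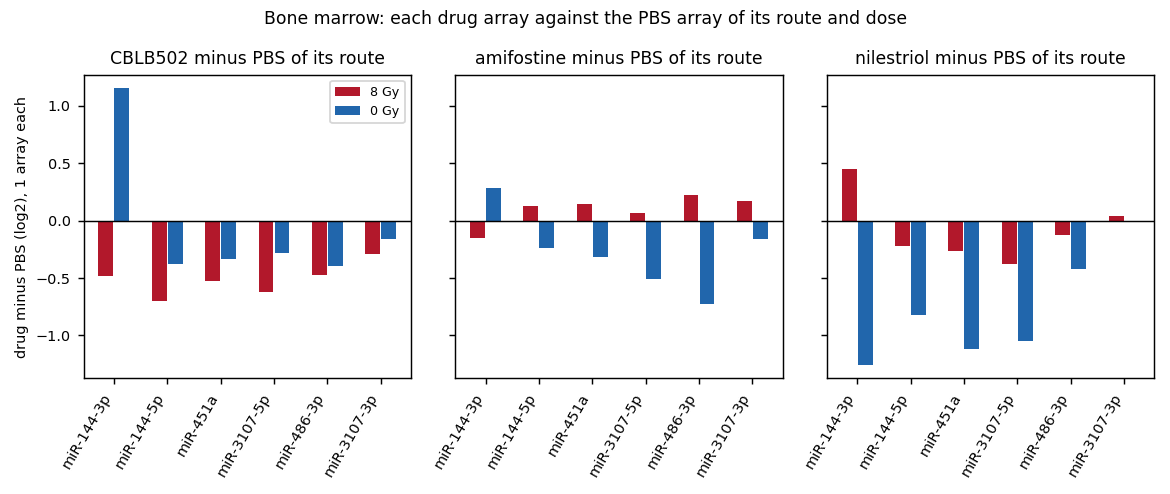
Each drug array minus the PBS array of its route and dose in bone marrow (log2 scaled signal, 1 array on each side, so no error bar), 8 Gy in red and 0 Gy in blue. The deepest bars are nilestriol at 0 Gy, down to -1.25 for miR-144-3p, and the one tall upward bar is miR-144-3p with CBLB502 at 0 Gy (1.15).

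Tissue was compared on 8 arrays, bone marrow and hypothalamus after amifostine i.p. or PBS i.p. at either dose, scaled together. Bone marrow miR-451a averaged 186 ± 107 and hypothalamus miR-451a 2.17 ± 0.28 (scaled signal, SD, n = 4 arrays each). The tissue difference was 6.22 ± 0.42 (log2 ± SE), or 74.7-fold (limma, adjusted p = 0.000225). miR-3107-5p averaged 5.05 ± 3.08 in bone marrow and 0.121 ± 0.019 in hypothalamus, a 35.6-fold difference (adjusted p = 0.000428). These were the members detected on 4 of 4 hypothalamus arrays, and for neither did the tissues come near each other.

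The other 4 members were detected on 0 of 4 hypothalamus arrays and on 4 of 4 bone marrow arrays, so their folds are bounds against the floor. As scaled here, miR-144-3p was at least 51.4-fold higher in bone marrow (limma, adjusted p = 0.00102), miR-144-5p at least 37.9-fold (0.000135), miR-486-3p at least 2.74-fold (0.0274) and miR-3107-3p at least 1.83-fold (0.0993). These 4 entered the test through bone marrow alone and have no spread in hypothalamus, so their p-values are given as the fit returned them and support nothing. Both members measured in the 2 tissues passed as higher in bone marrow, against 84 of 530 tested miRNAs (15.8%), while 213 passed as lower. That split turned with the scaling, to 242 higher against 134 lower when scaled over all miRNAs and to 211 higher against 148 lower after quantile normalization, and the median over all miRNAs was -0.38 as scaled here, 0.62 and 0.32 under those 2. Over all alternatives the log2 difference of miR-451a lay between 5.58 and 7.64 and that of miR-3107-5p between 3.96 and 6.57. The members at the floor moved far more, miR-144-3p between 2.67 and 11.5 and miR-144-5p between 2.27 and 11.2, lowest with normexp and highest with the authors' deposited table. As tissue was spread over slides, a limma fit with slide as a block was run too. Its tissue difference rests on the PBS i.p. arrays of slide 1 alone. The amifostine arrays do not inform it, lying on slide 2 for bone marrow and slide 3 for hypothalamus. In that fit miR-451a stood at 6.35 (adjusted p = 0.0042) and miR-3107-5p at 5.33 (0.00639). The call of miR-486-3p was lost (0.118), but with that member at the floor in hypothalamus this change supports nothing either.

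**Figure D5:**
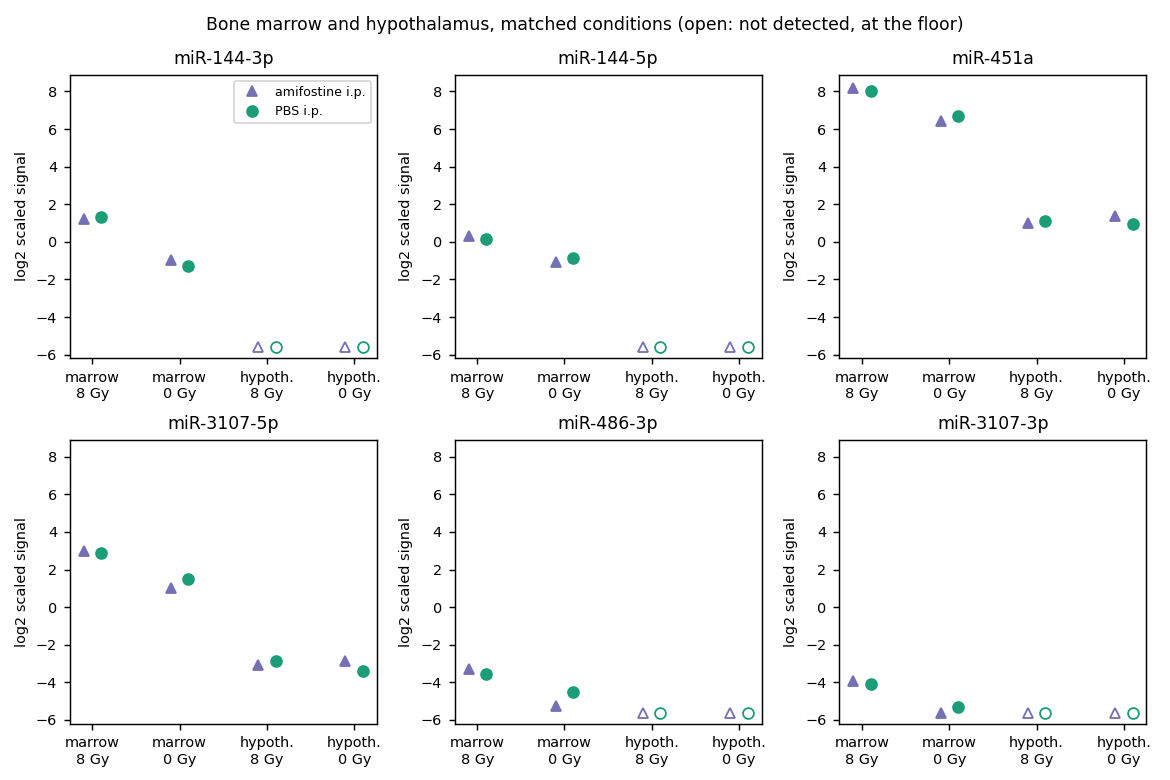
Log2 scaled signal of each member on the 8 matched arrays, bone marrow to the left of hypothalamus and 8 Gy to the left of 0 Gy, with triangles for amifostine i.p., circles for PBS i.p. and open symbols at the floor where not detected. miR-451a and miR-3107-5p are measured in both tissues, the other 4 in bone marrow only.

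In hypothalamus neither detectable member passed a test by dose. On the hypothalamus scale miR-451a was at 2.91 after amifostine and 2.72 after PBS at 8 Gy, and at 3.41 after amifostine and 3.09 after PBS at 0 Gy. miR-3107-5p was at 0.166 after amifostine and 0.174 after PBS at 8 Gy, and at 0.181 after amifostine and 0.152 after PBS at 0 Gy. The differences of 8 minus 0 Gy were -0.21 ± 0.17 for miR-451a and 0.03 ± 0.20 for miR-3107-5p (log2 ± SE, limma, adjusted p = 1 each). Their 95% intervals ran from -0.92 to 0.50 and from -0.81 to 0.88. The 4 arrays leave only 1 residual degree of freedom, to which limma adds a spread shared over all tested miRNAs. No miRNA of 544 passed (0%), and at an unadjusted p under 0.05 there were 0. Amifostine minus vehicle in hypothalamus was 0.12 ± 0.17 for miR-451a and 0.09 ± 0.20 for miR-3107-5p, with 0 of 544 miRNAs passing and 1 at an unadjusted p under 0.05, which was no member.

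The test of the difference itself, bone marrow change minus hypothalamus change, gave 1.66 ± 0.36 for miR-451a and 1.57 ± 0.44 for miR-3107-5p. The other 4 members sat at 1 constant floor in hypothalamus, so for them this difference only restates the bone marrow change and is not given. With limma 0 of 530 miRNAs passed (0%, adjusted p = 1 for miR-451a and for miR-3107-5p), while 21 had an unadjusted p under 0.05, both of these among them. With normexp background correction miR-451a (adjusted p = 0.0141) and miR-3107-5p (0.0277) passed, so the call depended on that setting.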

How the data were processed

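The members and the lists of other miRNAs were chosen with earlier results of these data known. Per the file headers, the authors read the arrays with Agilent Feature Extraction 10.7.1.1, and the deposited scanner files hold background-subtracted spot intensity. The deposited value table holds a log2 value for each miRNA and array, whose scaling is not given in the sources used here. It served as an alternative.

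Spot intensities were averaged per probe without outlier spots, then over the probes of a miRNA, and scaled to the 75th percentile of each array, taken over those miRNAs that every array in the fit detected (296 in bone marrow, 277 on the 8 matched arrays). Low values were raised to a floor, the 5th percentile of the detected signals (median of the arrays) (log2 -5.31 in bone marrow, -5.28 in hypothalamus, -5.61 on matched arrays) before taking log2. miRNAs detected (signal over 3 times its error) on at least 1 in 2 arrays of a fit were tested with limma (version 3.58.1, functions lmFit and eBayes, run in R 4.3.3; files were read with data.table, version 1.17.8), adjusted by Benjamini-Hochberg over all miRNAs tested at 0.05. Designs were arm plus dose for irradiation, dose plus pretreatment for drugs, 8 group means for drugs at each dose, and condition as block for tissue. Strands were compared by exact sign flips over the 5 arms. All tests were two-sided, and the fits were tested on simulated data. The text names all 6 members, the 6 miRNAs with the highest correlation with miR-451a, and list miRNAs that passed. The number of arrays limits the precision.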

Additional observations from a re-analysis of the deposited data

Results flagged for a closer look

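Over 20 groups of values examined for an array far from the others, 2 stood out, where chance flags about 1 in 20. For miR-451a in bone marrow at 0 Gy the nilestriol array lay at 5.49 (log2 scaled signal), and the other 4 arrays lay between 6.56 and 6.89. For miR-3107-3p at 0 Gy the PBS i.p. array lay at -5.15, and the other 4 sat together at the floor of -5.31, which leaves them no spread of their own.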

How the results depend on the processing

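Over 48 single results and 886 repeats of them under another setting, 782 kept direction and side of the threshold, 39 lost the call, 48 gained one and 17 turned sign. For bone marrow irradiation 6 members passed. This fell to 3 with the scanner software's totals, 1 with the authors' deposited table, 0 without a detection filter, 3 within slide 1 and 0 within slide 2, and ran between 0 and 6 with an arm left out. Over all miRNAs 47 passed, against 0 to 89 under the alternatives. In the vehicle arms no member passed, against 3 under normexp and 6 where an offset replaced the floor. Calls over all miRNAs in the vehicle arms numbered 0, against 0 to 93 under the alternatives. For nilestriol over both doses 0 members passed, against 3 with scaling over all miRNAs, where 1 of all miRNAs passed as higher and 71 as lower. The count also changed with an array left out. For nilestriol at 0 Gy 0 passed, against 3 with scaling over all miRNAs, 1 with quantile normalization, 4 with normexp, 2 with the authors' deposited table, 5 with the offset, 3 when detected on all arrays and 3 with the brighter probe alone. That last setting was chosen after seeing the data. Over all miRNAs 35 passed for nilestriol at 0 Gy, against 0 to 153. With scaling over all miRNAs 46 passed as higher and 106 as lower, and with quantile normalization 45 and 34. These 2 settings thus raised calls over the whole array. For CBLB502 over both doses 45 of all miRNAs passed, against 0 to 107. Nilestriol by irradiation gave 0, and 1 with the authors' deposited table. The tissue difference gave 5, of them 3 at the floor in hypothalamus, against 2 of 2 tested when detected on all arrays and 2 to 6 with an array left out, since fewer members then passed the filter. Over all miRNAs it gave 297, against 160 to 382. Tissue by irradiation gave 0, against 3 with normexp, 1 with the offset and 1 with the brighter probe. In each of these settings 1 call was miR-144-3p. It was detected on no hypothalamus array, so its call is no measure of a difference between tissues.

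Signs turned with the scanner software's totals for miR-486-3p: -0.0786 for irradiation, -0.497 in the vehicle arms and -0.232 for tissue by irradiation. With an array left out CBLB502 lay between -0.0181 and 0.883 for miR-144-3p and between -0.491 and 0.0766 for miR-3107-5p, and CBLB502 by irradiation for miR-451a turned to 0.0412 with quantile normalization. Amifostine for miR-451a turned to -0.189 with scaling over all miRNAs, -0.187 with quantile normalization, -0.0581 without scaling, -0.21 with the authors' deposited table and -0.0891 against the vehicle of the same route, and lay between -0.0933 and 0.228 with an array left out. Amifostine by irradiation for miR-451a was -0.0927 without scaling, and nilestriol for miR-3107-3p 0.0108 against the vehicle of the same route. In hypothalamus miR-3107-5p turned to -0.0199 for irradiation and -0.0277 for amifostine with normexp. The strand difference of miR-486-3p and miR-3107-5p was 1.37 with the authors' deposited table. The causes were not tested. The arm or condition was already the block in the irradiation and tissue fits. Beyond those blocks, no paired analysis was possible because the labels give no replicate numbers and each condition has 1 array. The miR-486-3p and miR-3107-3p signals lie close to background, and normexp gave them irradiation changes of 0.21 and 0.12.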
